A study of Mus musculus with 9 samples.

Results

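The genes for the proteins of the cytosolic ribosome were followed in ST2 cells, a mouse bone marrow stromal cell line that can be driven towards osteoblasts by Wnt signaling. Members were all genes annotated as protein coding whose symbol follows the Rps or Rpl naming pattern, without the ribosomal S6 kinases and binding partners of similar name, which gave 93 of the 54532 genes in the table. Of these, 77 were the subunit genes proper (31 of the small subunit, 43 of the large subunit and 3 of its P stalk) and 16 were paralogs or retrocopies. Cells were kept for 72 h with vehicle, with recombinant human Wnt3a (rhWnt3a, 50 ng/ml), or with rhWnt3a and OSMI (20 µM), an inhibitor of the O-GlcNAc transferase OGT, and 3 libraries were made per group. The sample titles give the last group (OSMI group hereafter) as rhWnt3a with OSMI, whereas its treatment label names OSMI alone and no label gives its rhWnt3a dose. The study calls the libraries of a group biological replicates, but no label says whether they came from separate cultures or what was repeated, so p-values measure the spread between these libraries, which may in part be technical. All groups are the same cell line, and in bulk RNA fewer cells and less RNA per cell cannot be told apart.

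Each ribosome joins a small subunit, which reads the mRNA, to a large subunit, which forms the peptide bond, and each subunit protein is present in about a single copy per ribosome, apart from the stalk proteins. The mRNAs of these proteins are short, abundant and mostly begin with a run of pyrimidines, the 5′ terminal oligopyrimidine tract, through which mTOR signaling controls their translation. Their genes have seeded many retrocopies in mammalian genomes, so that reads from a gene and from its copies are hard to separate.

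The libraries held 16135898 to 17583945 gene counts. The stromal markers Col1a1, Col1a2, Col3a1, Pdgfrb, Vcam1, Vim and Prrx1 were abundant, whereas Thy1, listed with them, had 0 to 4 counts. Summed markers of blood cells reached at most 0.637 CPM, counts scaled to a common library total, those of endothelium 1.28 and those of epithelium 0.244.

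Promoter sequences from RefSeq (GRCm38.p6) could be matched to 65 members in 77 windows of 300 bases. The letters CTTTCC on the sense strand within 50 bases of the annotated start were found in 24 of these windows (31.2%) and in 4.69% of all 32851 windows. The letters CCGGAAG on either strand were found in 35.1% of the members' windows against 8.86% of all, AAGATGGC in 10.4% against 2.75%, and TATAAA on the sense strand in 7.79% against 8.32%. These motifs were chosen after the sequences and values had been seen. Starts are shown for members with a large or a small spread between replicates and for the retrocopy Rps27rt beside its parent Rps27, as the 15 bases on each side of the start, with CTTTCC in capitals.
Rps27, chr3:90213634-90213663, minus strand: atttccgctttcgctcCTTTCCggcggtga
Rps27rt, chr9:114982725-114982754, minus strand: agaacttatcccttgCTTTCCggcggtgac
Rpl35, chr2:39005117-39005146, minus strand: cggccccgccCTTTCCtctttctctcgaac
Rpl39, chrX:37085208-37085237, minus strand: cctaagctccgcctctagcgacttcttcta
Rps10, chr17:27635230-27635259, minus strand: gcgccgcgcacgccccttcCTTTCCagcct
Rpl7l1, chr17:46782642-46782671, minus strand: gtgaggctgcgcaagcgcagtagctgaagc
Rps27 and its retrocopy held the motif at nearly the same place. Of the members with the largest or smallest spread that could be matched, Rps27, Rpl35, Rps10 and Rpl4 (from position −17, sequence not shown) held it within 50 bases, and Rpl39 and Rpl7l1 did not.

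Together the members took 2.90%, 3.21% and 3.87% of all counts in vehicle replicates 1, 2 and 3. With rhWnt3a the share was 3.62%, 6.13% and 3.72%, and with rhWnt3a and OSMI it was 2.88%, 2.92% and 0.872%. The group means were 3.33% ± 0.496 with vehicle, 4.49% ± 1.42 with rhWnt3a and 2.22% ± 1.17 with OSMI (SD, n = 3 each). The highest and lowest libraries of a group differed by 1.33-fold with vehicle, 1.70-fold with rhWnt3a and 3.35-fold with OSMI. A pair of libraries made up most of this spread, rhWnt3a replicate 2 on the high side and OSMI replicate 3 on the low side, and the other 7 lay between 2.88% and 3.87%.

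**Figure D1:**
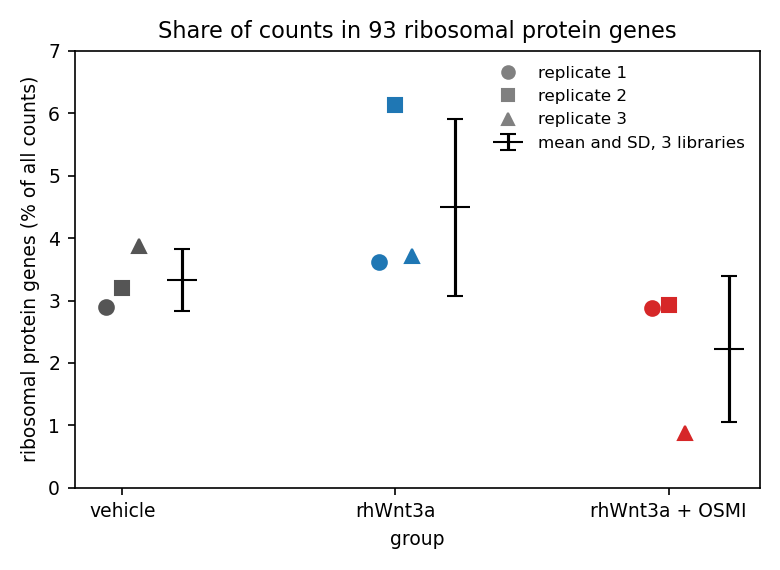
Share of all gene counts (%) taken by the 93 ribosomal protein genes in each of the 9 libraries, by group, with marker shape for the replicate and the bar for the mean and SD of 3 libraries. rhWnt3a replicate 2 stands at 6.13% and OSMI replicate 3 at 0.872%, with the other libraries between 2.88% and 3.87%.

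Of the 93 members, 87 passed the filter on low counts and were tested, among them all 77 subunit genes. The 6 others were Rpl3l, a muscle paralog of Rpl3, Rpl10l and Rpl39l, germ line paralogs of Rpl10 and Rpl39, and the annotated copies Rpl13a-ps1, Rpl36-ps4 and Rpl9-ps1, with 0 to 3 counts in any library. In OSMI replicate 3 the tested members had a median level 3.57-fold below the mean of the other 2 OSMI libraries, a log2 difference of −1.84, and 86 of 87 were at their lowest of the group there. Over all 14004 tested genes, 45.1% had their lowest value of the group in that library. In rhWnt3a replicate 2 the members had a median log2 difference of 0.68 from the other 2 libraries, 1.61-fold, and 86 of 87 were at their highest, against 44.0% of all tested genes. Vehicle libraries were closer together, with 57 of 87 members highest in replicate 3 (43.6% of all tested genes) and 73 lowest in replicate 1 (34.9%).

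**Figure D2:**
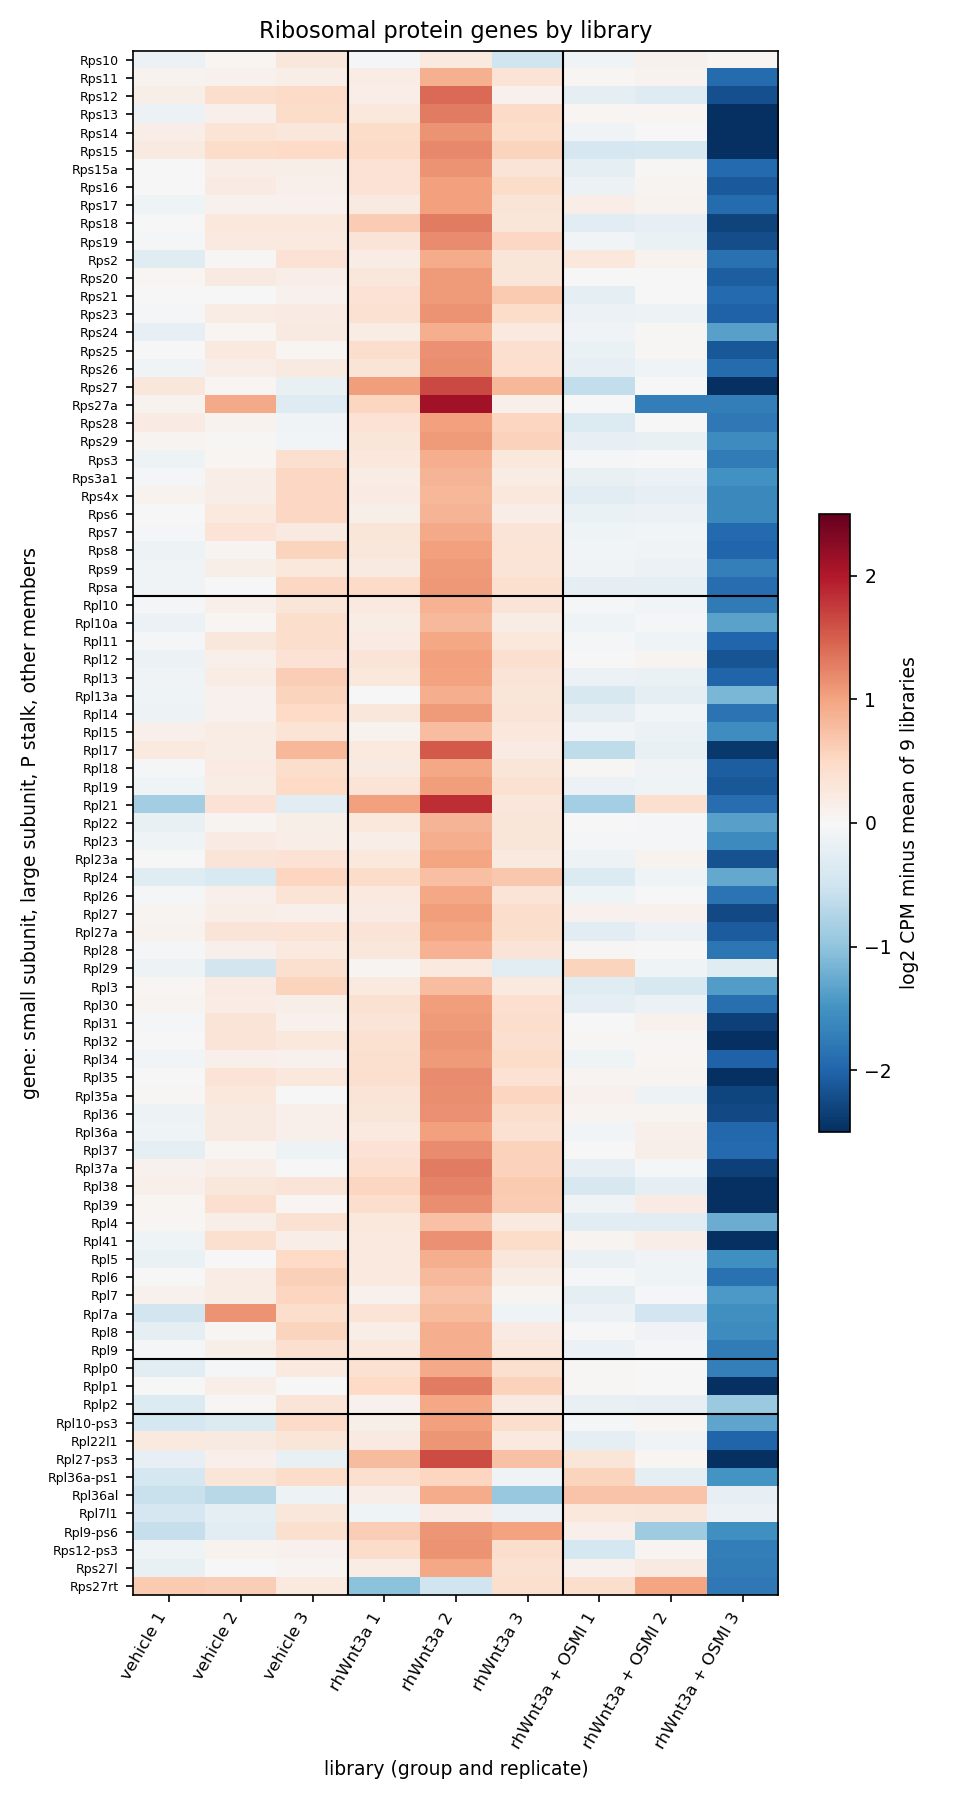
Log2 CPM of 85 of the 87 tested members minus the mean of the gene over the 9 libraries (colour), with libraries in columns by group and genes in rows by subunit. The blue column is OSMI replicate 3 and the red column rhWnt3a replicate 2, and Rps10, Rpl29, Rpl7l1, Rpl36al, Rps27a and Rps27rt depart from the pattern of the other rows.

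The spread between replicates was measured per gene as the pooled within-group SD of log2 CPM (6 degrees of freedom). Its median was 0.675 for the members and 0.285 for all tested genes, and 59 of 87 members (67.8%) lay above 0.617, the 90th percentile of all tested genes. Among the 3532 tested genes with a mean log2 CPM above 6, the median SD was 0.210. By group, the median SD of the members was 0.192 with vehicle, 0.401 with rhWnt3a and 1.07 with OSMI, whereas over all tested genes it was 0.243, 0.237 and 0.246. By these medians, not matched for level, the members varied less than all tested genes among the vehicle libraries and more in the treated groups. In each treated group 1 library stood apart, rhWnt3a replicate 2 and OSMI replicate 3. Without OSMI replicate 3 the median SD of the members was 0.295 (all tested genes 0.252), and without rhWnt3a replicate 2 as well it was 0.160 (0.209). These libraries were picked for their level of ribosomal protein RNA, so that a smaller spread without them follows in part from the choice.

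**Figure D3:**
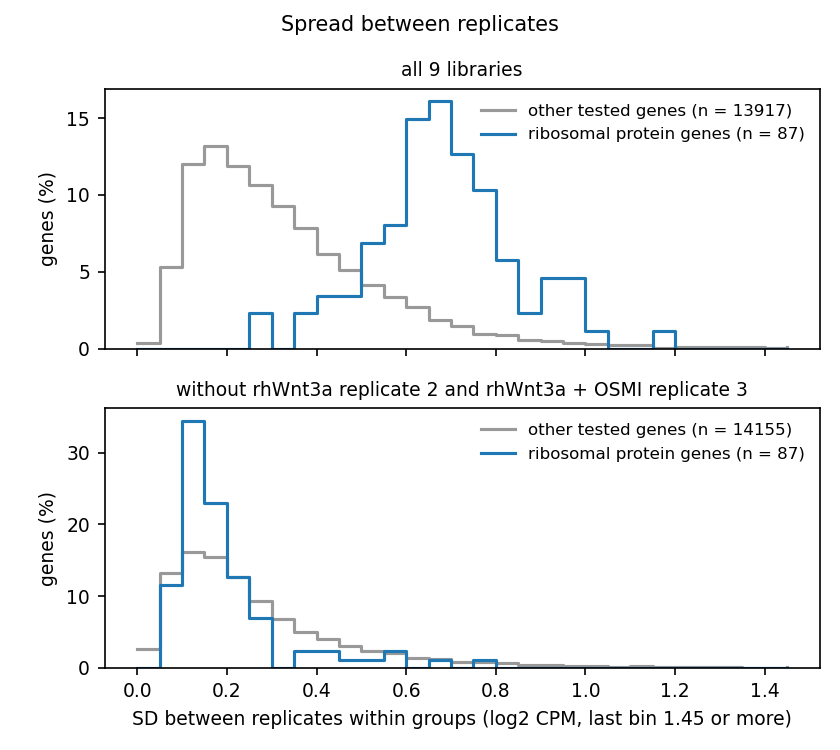
Distribution of the within-group SD of log2 CPM (x axis) as percent of genes (y axis) for the ribosomal protein genes (blue) and the other tested genes (grey), in all 9 libraries (upper panel) and without rhWnt3a replicate 2 and OSMI replicate 3 (lower panel). The members' median is 0.675 in the upper panel and 0.160 in the lower one.

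The members moved between replicates as a block. Their deviations from the group means had a median pairwise Pearson r of 0.966 over the 9 libraries, and 0.868 without OSMI replicate 3, as a description, since all points share the same libraries and scaling. In all, 73 of 87 members had r above 0.9 with the mean of the subunit genes, and 2, Rps10 and Rps27a, had r below 0.5. A high r was not limited to the members, since genes of the mitochondrial ribosome had a median of 0.934. The spread was smallest in Rps10, a protein of the small subunit (SD 0.254), followed by the paralog Rpl7l1 (0.281) and by Rpl4 (0.370) and Rpl29 (0.389) of the large subunit. It was largest in the retrocopy Rpl27-ps3 (1.17), in Rpl39, a short protein at the exit tunnel (1.01), in Rps27 (0.960) and in Rpl35 (0.959). Rpl39 had 177, 224 and 176 CPM with vehicle, 230, 379 and 263 with rhWnt3a, and 161, 196 and 23.4 with OSMI. Rps10 had 6.41, 7.33 and 8.71 CPM with vehicle, 7.0, 8.41 and 5.03 with rhWnt3a, and 6.71, 7.69 and 7.40 with OSMI. The low level in OSMI replicate 3 was thus plain in Rpl39 and not seen in Rps10, which rested on 84 to 154 counts.

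Both subunits took part in the block. Counts of small subunit genes per count of large subunit and stalk genes were between 0.634 and 0.745, with group means of 0.694 ± 0.0171 (vehicle), 0.714 ± 0.0266 (rhWnt3a) and 0.661 ± 0.0232 (OSMI; SD, n = 3). The lowest ratio was that of OSMI replicate 3 and the highest that of rhWnt3a replicate 2. Genes named as ribosomal protein pseudogenes, of which the table held 293, had 5.47 to 6.24 counts per 100 counts of the members, so that their level followed that of the members. The share of counts from the mitochondrial genome was 2.51% to 3.36%, with OSMI replicate 3 lowest and OSMI replicate 2 highest.

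The length of the principal transcript was related to the deviations in all libraries, the pair that stood apart included. Across tested genes, its rank correlation with the deviation from the group mean was 0.46 in OSMI replicate 3 and −0.53 in rhWnt3a replicate 2. Genes with short transcripts were thus low in the former and high in the latter. In vehicle replicates 1, 2 and 3 the correlation was 0.36, 0.23 and −0.37. It was 0.45 and 0.42 in rhWnt3a replicates 1 and 3, where the members' median log2 difference from the other 2 replicates was −0.39 and −0.30, and −0.42 and −0.39 in OSMI replicates 1 and 2. The principal transcripts of the subunit genes had a median length of 851 bases against 2775 for all tested genes. After a correction for transcript length and GC content, the members' median log2 difference from the other 2 replicates was −1.22 in OSMI replicate 3 and 0.48 in rhWnt3a replicate 2. Both differences were smaller than without the correction and kept their sign. Between replicates the stromal markers deviated the other way from the members in OSMI replicate 3, whereas between groups they were lower with OSMI, as the members were. Their summed level was 21434 to 27940 CPM with vehicle, 17969 to 20739 with rhWnt3a and 8890 to 17134 with OSMI, where the highest library was replicate 3, with a median log2 difference of 0.79 from the other 2. Of 7 tested, edgeR called 1 higher and 2 lower with rhWnt3a against vehicle, 3 lower with OSMI against rhWnt3a, and 1 higher and 4 lower with OSMI against vehicle. The part of length and of the stromal genes in the members' spread was otherwise not tested.

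Levels are compared between genes in FPKM, which divides by gene length. The subunit genes had mean FPKM values from 0.671 to 1717 with a median of 171, although their proteins are needed in nearly equal amounts. The highest were Rplp1 (1717) and Rplp0 (1344), the acidic and the scaffold protein of the stalk that recruits elongation factors, then Rps15 (778), Rps3a1 (709) and Rpl41 (558). The lowest were Rpl29 (0.671), Rps10 (3.06) and Rpl24 (4.29), the 3 subunit genes with a mean below 10. Rpl29 had 8 to 19 counts in each library. Near-identical genes (at least 97% identity over at least 100 bases) covered more than 50% of the transcript in 51 of 77 subunit genes, with a median of 66.9%. Rpl29 was covered over 88.5% by 16 other genes, Rps10 over 58.1% by 3 and Rpl24 over 83.5% by 4. Coverage and FPKM were almost unrelated in rank across the subunit genes (rho = 0.087, a description across genes). How the counting treated reads that match several genes is not given in the sources used here, so levels of single subunit genes remain uncertain, apart from genes such as Rpl4, Rps14, Rpl32, Rpl22 and Rps21, for which no near-identical gene was found. These genes showed the block as well, with OSMI replicate 3 at 363 CPM against 699 and 701 in Rpl4, and at 55.0 CPM against 343 and 370 in Rps14.

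Rplp0, widely used as a reference gene in quantitative PCR, had 1727, 2003 and 2465 CPM with vehicle, 2703, 3992 and 2734 with rhWnt3a, and 2107, 2081 and 630 with OSMI. Its highest and lowest libraries differed by 6.34-fold. Rplp1 had 735, 824 and 737 CPM with vehicle, 1043, 1812 and 1089 with rhWnt3a, and 754, 735 and 122 with OSMI. Rplp2, the other acidic stalk protein, was steadier, with 249, 321 and 393, then 341, 615 and 371, then 279, 276 and 167 CPM. In Rplp0 and Rplp1 the rhWnt3a libraries lay above all vehicle libraries, and in Rplp2 they overlapped with them.

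The effect of rhWnt3a was read from the comparison with vehicle, over all genes with edgeR's quasi-likelihood test. Calls needed a change of more than 0.5 on the log2 scale together with a Benjamini-Hochberg adjusted p below 0.05, which held for 8.78% of tested genes and for 0 of 87 members. The median log2 fold change of the members was 0.46 (1.38-fold), and that of all tested genes 0.037. In direction, 84 members were higher and 3 lower, beside 54.6% of all tested genes higher. With a median standard error (SE) of 0.415, close to the median change itself, the lowest adjusted p of a member in edgeR was 0.163, in Rpl9-ps6. In 13 members the log2 fold change was larger in size than their own within-group SD, a count given without a share over all genes. The groups did not overlap in 37 members (42.5%), all higher with rhWnt3a, against 12.2% of tested genes. At an unadjusted p under 0.05 with the same fold, 2 members (Rpl21 and Rpl9-ps6) were higher, beside 5.78% of tested genes. DESeq2 called 0 members, and 2.89% of genes as higher. Without OSMI replicate 3, which enters this comparison through the shared estimate of spread, edgeR called 6 members higher (Rplp1, Rpl37, Rps21, Rps27, Rps29 and Rpl27-ps3; 6.9%, beside 10.5% of genes in either direction), and with no filter on low counts it called 5, beside 5.63% of genes.

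The largest values in this comparison were those of Rpl21 (log2 fold change 1.37, SE 0.570), Rpl27-ps3 (1.26, SE 0.642) and Rps27 (1.15, SE 0.552). Rpl21, a large subunit protein, had 17.7, 41.9 and 26.6 CPM with vehicle and 66.0, 118 and 39.7 with rhWnt3a, and the ranges overlapped. Rps27, a zinc finger protein of the small subunit, had 96.4, 82.5 and 70.1 CPM with vehicle and 163, 250 and 141 with rhWnt3a, with no overlap. The 3 members below vehicle were Rps27rt (−0.77, SE 0.567), Rps10 (−0.14, SE 0.215) and Rpl7a (−0.11, SE 0.427). For Rpl7a the vehicle libraries themselves ran from 58.2 to 176 CPM.

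OSMI was compared with rhWnt3a to ask what OGT inhibition changed in Wnt-treated cells. The edgeR test called 4.74% of tested genes and 0 of 87 members. The median log2 fold change of the members was −1.06 (0.479-fold) with a median SE of 0.419, beside −0.015 for all tested genes. In direction 82 members were lower, beside 51.5% of tested genes, and 5 higher. In size, 81 had a log2 fold change larger than their own within-group SD, again without a share over all genes. The groups did not overlap in 78 members (89.7%), all lower with OSMI, against 17.0% of tested genes. With the unadjusted p, 64 members (73.6%) passed as lower, beside 10.7% of tested genes. DESeq2 called 31 members lower (35.6%), beside 5.61% of its tested genes. The lowest adjusted p values of members in edgeR were 0.0558 (Rpl9-ps6) and 0.0632 (Rpl4). Since rhWnt3a replicate 2 and OSMI replicate 3 stood on opposite sides, this comparison carried both. Without OSMI replicate 3 edgeR called 5 members lower (Rps15, Rps21, Rps27, Rps29 and Rpl38; 5.75%, beside 4.62% of genes), without vehicle replicate 3 it called Rpl9-ps6 and Rpl24 (beside 5.33%), without OSMI replicate 1 it called Rpl9-ps6 (beside 1.67%), and with no filter on low counts it called 80 of the 90 then tested, beside 5.37% of genes.

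Rps27a, which encodes ubiquitin fused to a small subunit protein, had the lowest value, at −2.10 on the log2 scale with an SE of 0.630 and an adjusted p of 0.0896 in edgeR. It had 262, 770 and 196 CPM with rhWnt3a and 178, 54.1 and 53.9 with OSMI, so that here replicate 2 of the OSMI group was as low as replicate 3. Vehicle libraries of Rps27a had 192, 345 and 144 CPM, a wider range than the block showed, and near-identical stretches in 7 other genes covered 79.9% of its transcript. Rps27 followed with −1.98 (SE 0.566), at 51.8, 78.6 and 9.67 CPM with OSMI, and Rpl21 with −1.68 (SE 0.576), at 18, 43.1 and 8.57 CPM. Members above the rhWnt3a group were Rps27rt (0.52, SE 0.566), Rpl36al (0.25, SE 0.522) and Rpl7l1 (0.16, SE 0.208), with Rps10 (0.093, SE 0.215) and Rpl29 (0.068, SE 0.406) close to 0. Each of these 5 values was smaller than its SE.

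Against vehicle, the OSMI group asks for the net effect of both agents. Here 14.2% of tested genes and 0 of 87 members were called by edgeR. The median log2 fold change of the members was −0.59 (0.663-fold) with a median SE of 0.417, beside −0.0077 for all tested genes. In direction 84 members were lower, beside 50.6% of tested genes. In size, 34 exceeded their own within-group SD, again without a share over all genes. The groups did not overlap in 30 members (34.5%), all lower, against 19.5% of tested genes. By unadjusted p, 10 members were lower, beside 14.1% of tested genes, and DESeq2 called 5 lower, among them Rpl3, Rpl4, Rpl7a and Rps15, beside 9.51% of its genes. Both of these shares of members (11.5% and 5.75%) lay below those of all genes. Without OSMI replicate 3 edgeR called Rps15 (beside 12.8% of genes), without rhWnt3a replicate 2 it called Rpl3 (beside 16.2%), and with no filter on low counts it called 28 members, beside 9.3% of genes. This comparison shares its libraries with the other 2 and is no independent evidence.

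The lowest values against vehicle were those of Rpl17 (−1.26, SE 0.523), Rps27a (−1.25, SE 0.615) and Rps15 (−1.24, SE 0.465). Rps15, a protein in the head of the small subunit, had 483, 574 and 588 CPM with vehicle, 578, 963 and 608 with rhWnt3a, and 311, 315 and 68.9 with OSMI. All 3 OSMI libraries were below every other library. Rpl3, at the peptidyl transferase center, had the lowest edgeR adjusted p of a member here (0.0633), with 827, 928 and 1180 CPM with vehicle and 653, 611 and 306 with OSMI. The members above vehicle were Rpl36al (1.05, SE 0.558), Rpl7l1 (0.25, SE 0.208) and Rpl29 (0.12, SE 0.409). Rpl36al rested on 5 to 25 counts.

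The comparisons were repeated on 7 libraries, without rhWnt3a replicate 2 and OSMI replicate 3, an alternative added after the data had been seen. Each treated group then held 2 libraries. The 2 left out were picked for the level of these same genes. Smaller SE and adjusted p values of members thus follow in part from that choice. The members' median log2 fold changes moved to 0.18 for rhWnt3a against vehicle, −0.38 for OSMI against rhWnt3a and −0.20 for OSMI against vehicle. Over all tested genes the medians were 0.025, 0.0063 and 0.033. The members' median SE values were 0.139, 0.154 and 0.141. Of 87 members, 69, 6 and 13 were higher in these comparisons, given without a share over all genes. Directions became less uniform in both comparisons with vehicle. In OSMI against rhWnt3a they hardly changed, with 81 members lower here and 82 with all 9 libraries. In rhWnt3a against vehicle 2 members were called higher (Rps27 and Rpl37), beside 11.6% of tested genes. In OSMI against rhWnt3a 11 were called lower, beside 4.86% of tested genes. They were Rps15, Rps18, Rps21, Rps23, Rps27 and Rps29 of the small subunit, Rpl27a, Rpl30, Rpl37a and Rpl38 of the large subunit, and Rplp1. In OSMI against vehicle 6 were called lower, among them Rpl3, Rpl17, Rpl38, Rps12 and Rps15, beside 16.2%. These genes were named after their values had been seen.

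Rps15 and Rpl38 were called lower in both OSMI comparisons of the 7 libraries, which share the same OSMI libraries and are not independent. Rps15 changed by −0.92 on the log2 scale against rhWnt3a (SE 0.134) and by −0.80 against vehicle (SE 0.125), with adjusted p values of 0.00768 and 0.00294 in edgeR. Rpl38, a large subunit protein known for its role in skeletal patterning, changed by −0.91 (SE 0.129) and −0.56 (SE 0.119), with adjusted p values of 0.00653 and 0.0121 in edgeR. Its levels were 55.0, 61.7 and 63.5 CPM with vehicle, 73.1, 119 and 79.7 with rhWnt3a, and 38.4, 42.4 and 8.86 with OSMI, and no library of the OSMI group reached the others. Rplp0, by contrast, had 0.03 (SE 0.15) for OSMI against vehicle in the 7 libraries, so that its lower level in the 9 rested on replicate 3.

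**Figure D4:**
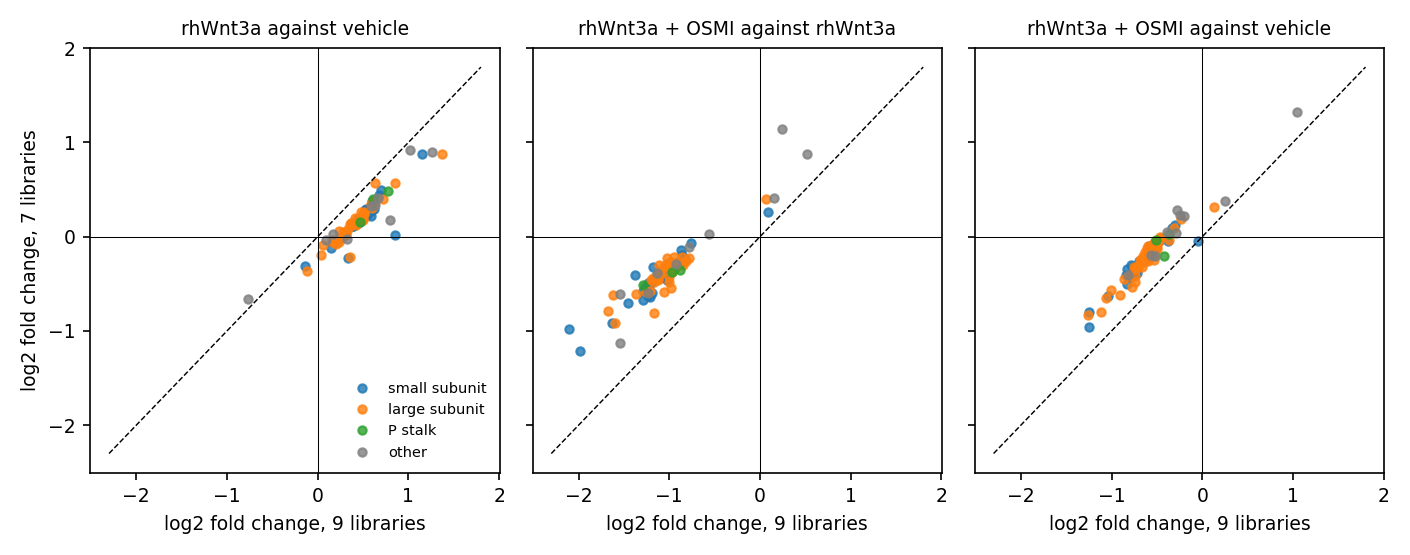
Log2 fold change of each of the 87 tested members in the 3 comparisons, fitted on all 9 libraries (x axis) and on 7 libraries without rhWnt3a replicate 2 and OSMI replicate 3 (y axis), with colour for the class of the gene and a dashed line of equality. Medians move from 0.46 to 0.18, from −1.06 to −0.38 and from −0.59 to −0.20.

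Rps27rt, an intronless copy of Rps27, moved against its parent in both comparisons that involve the rhWnt3a group. In OSMI against vehicle both genes were lower (Rps27rt −0.25, Rps27 −0.83 on the log2 scale). In rhWnt3a replicate 3 Rps27rt lay within the vehicle range. It had 784, 726 and 633 counts with vehicle, 242, 374 and 671 with rhWnt3a, and 675, 1044 and 149 with OSMI, while Rps27 had 1578, 1295 and 1239, then 2686, 4391 and 2356, then 856, 1369 and 166 counts. Of the summed counts of the pair, Rps27rt took 33.2%, 35.9% and 33.8% with vehicle, 8.27%, 7.85% and 22.2% with rhWnt3a, and 44.1%, 43.3% and 47.3% with OSMI. The means were 34.3% ± 1.43, 12.8% ± 8.15 and 44.9% ± 2.13 (SD, n = 3), and the 3 groups did not overlap. Each pair of groups gave p = 0.1 in a two-sided exact permutation test, the smallest that 3 against 3 allows, on a ratio picked after the values had been seen. This share did not set OSMI replicate 3 apart from its group, since both genes fell there together. Near-identical sequence in other genes covered 98.8% of the Rps27 transcript and 92.2% of that of Rps27rt, so that reads of the pair may be assigned to either.

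The other members outside the subunit list mostly followed their parents. Rps12-ps3, an annotated copy of Rps12, had 507 FPKM and a log2 fold change of −1.23 for OSMI against rhWnt3a, beside −1.38 for Rps12. Rpl9-ps6 had 21.1 FPKM and −1.54, beside −0.98 for Rpl9. Rpl10-ps3 (7.31 FPKM) and Rpl36a-ps1 (1.69 FPKM) had −0.92 and −0.56, and Rpl27-ps3 (4.10 FPKM) had −1.54 with 1 count in OSMI replicate 3. All 5 copies were covered over 96.4% or more by near-identical genes, so that reads of a copy and its parent may be assigned to either. Among the diverged paralogs, Rpl22l1 (37.4 FPKM), which can replace Rpl22, had −1.14 (SE 0.418), and Rps27l (54.1 FPKM), a p53-responsive relative of Rps27, had −0.79 (SE 0.416). Rpl7l1 (44.2 FPKM), a relative of Rpl7 with a role in ribosome assembly, had 116, 130 and 190 CPM with vehicle, 145, 180 and 139 with rhWnt3a, and 187, 190 and 140 with OSMI. Its level in OSMI replicate 3 lay within the range of the vehicle libraries. When libraries were scaled by the summed counts of the members, an alternative added after the data had been seen, Rpl7l1 (1.5), Rps10 (1.56) and Rps27rt (1.34) were called higher with OSMI than with rhWnt3a (edgeR adjusted p = 0.0476, 0.0476 and 0.0490) and no member lower. This scaling removes the common shift of the members by construction, so that members outside the block come out higher. It called 43.1% of all tested genes in that comparison, beside 3.45% of the members.

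Other genes of the pathway were read from lists. Rack1 and Fau, subunit genes under other names, were not called in any comparison by edgeR, with log2 fold changes of −1.01 (SE 0.388) and −1.13 (SE 0.521) for OSMI against rhWnt3a. Rack1 had 17712, 18709 and 5862 counts in OSMI replicates 1, 2 and 3. Among 77 tested genes of the mitochondrial ribosome, which translates the mRNAs of mitochondrial DNA, Mrps6 was called lower in rhWnt3a against vehicle (−1.35, SE 0.316), none in OSMI against rhWnt3a, and Mrpl48 lower in OSMI against vehicle (−0.77, SE 0.213). The medians of this list were 0.15, −0.33 and −0.18 in these comparisons, and its within-group SD had a median of 0.444. Its genes had a median r of 0.934 with the mean of the cytosolic subunit genes over the deviations of 9 libraries, again as a description. Of 41 translation factors 0 were called in any comparison, with medians of 0.16, −0.29 and −0.24 and a median SD of 0.326.

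Ribosome assembly genes were called in part, at shares near those of all genes. Of 63 tested, 0 were called with rhWnt3a against vehicle, 3 were higher and 1 lower with OSMI against rhWnt3a, and 10 were higher and 1 lower with OSMI against vehicle, with medians of 0.11, 0.19 and 0.23. The called shares with OSMI were 6.35% and 17.5%, beside 4.74% and 14.2% of all tested genes. Rrp12, which serves the export of both subunits, rose in both OSMI comparisons (0.81, SE 0.178, and 1.11, SE 0.179), as did Heatr1, a factor of early rRNA processing (0.72, SE 0.157, and 0.75, SE 0.157), and Nolc1, a nucleolar chaperone (0.64, SE 0.146, and 0.86, SE 0.146). Polr1a, the largest subunit of RNA polymerase I, rose against vehicle (0.91, SE 0.246). Nop53, which is needed for the large subunit, fell in both (−0.77, SE 0.162, and −0.64, SE 0.162). Between replicates this list followed the members in part, with a median r of 0.573 with the mean of the subunit genes and median log2 differences of −0.32 in OSMI replicate 3 and 0.23 in rhWnt3a replicate 2.

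Of 26 tested genes of the S6 kinase, mTOR and Myc group, Mxi1, a Myc antagonist, rose (0.64, SE 0.133) and Rps6ka5, a nuclear kinase of the ribosomal S6 kinase family, fell (−0.69, SE 0.173) with rhWnt3a against vehicle. None was called with OSMI against rhWnt3a. With OSMI against vehicle, Larp1, which binds the 5′ terminal oligopyrimidine tract, rose (0.63, SE 0.185), and so did Rps6ka2 (0.73, SE 0.177). The 2 genes called in each of these comparisons with vehicle are 7.69% of the list, beside 8.78% and 14.2% of all tested genes. The deviations of this list had a median r of −0.22 with the mean of the subunit genes.

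**Figure D5:**
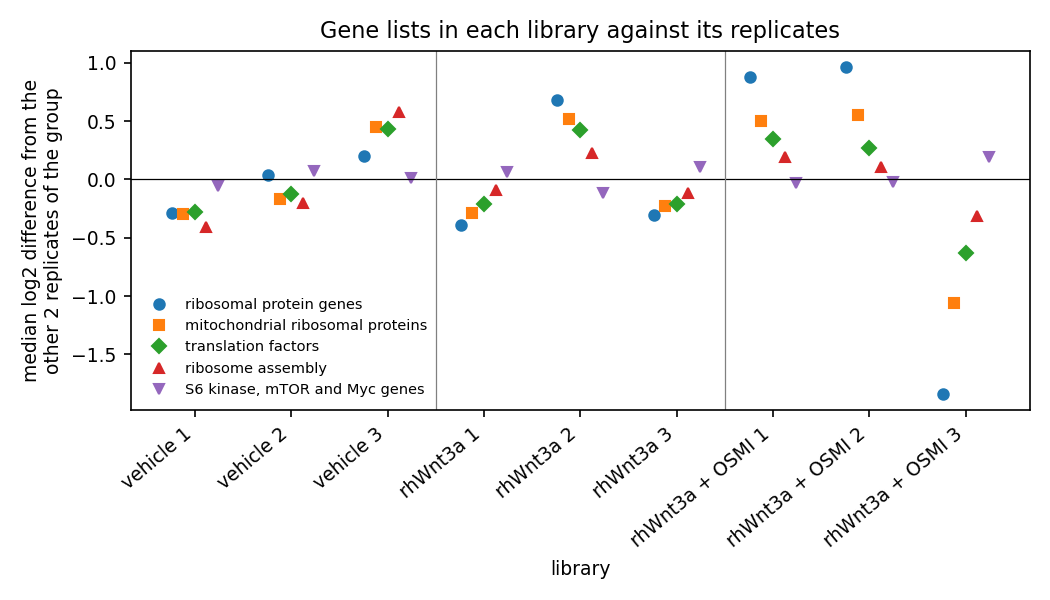
Median log2 difference of each gene list in each library from the other 2 replicates of its group (y axis), for the ribosomal protein genes and 4 related lists (marker and colour). In OSMI replicate 3 the ribosomal protein genes lie at −1.84, below the mitochondrial ribosomal proteins, the translation factors and the assembly genes, while the S6 kinase, mTOR and Myc genes lie above 0.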

How the data were processed

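Poly-A mRNA of ST2 cells was sequenced in 9 libraries, 3 per group. Per the labels and the submitters' processing notes, the authors used CASAVA, fastp, HISAT2 2.0.5 and featureCounts 1.5.0-p3 with mm10. Strandedness, annotation and the treatment of reads matching several genes are not given in the sources used here. The authors deposited raw read counts per gene, and FPKM values they computed from counts and gene length. The deposited columns of the authors' comparisons (15 columns of log2 fold changes and p-values) were not used.

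Tests used edgeR 4.0.16 (R 4.3.3): filterByExpr (minimum count 10, minimum total 15), TMM scaling, 1 quasi-likelihood fit on all 9 libraries, two-sided tests and Benjamini-Hochberg adjustment over 14004 genes. CPM values use the TMM-scaled total of the tested genes, and log2 CPM a prior count of 2. SE is the size of the log2 fold change over the square root of F. The test was checked on simulated counts of independent genes with the same dispersion for every gene. Shifts shared by many genes of a library, as in the members, were not simulated. Transcript copies were searched with BLAST 2.17.0 in GENCODE M21, where 89 members had the same start and end. DESeq2 1.42.0, other scalings, filters, corrections and left-out libraries served as alternatives. At this depth 3 counts correspond to 0.170 to 0.191 CPM. Some genes are not reported here by name. Members, lists and tests were chosen with earlier results of these data known. Named were the members with the highest and lowest FPKM, the largest and smallest SD, the 3 largest rises and falls per comparison, the stalk genes and the members outside the subunit list, and from each other list up to 3 called genes.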

Additional observations from a re-analysis of the deposited data

How the results depend on the processing

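Among the ribosomal protein genes the medians of the 3 comparisons kept their sign under the alternatives run, except with libraries scaled by summed ribosomal protein counts, which by construction set them to 0.048, −0.044 and 0.0030 (rhWnt3a against vehicle, OSMI against rhWnt3a, OSMI against vehicle), whereas the number of members called, 0 in each, did not stay at 0. The counts are given for rhWnt3a against vehicle, OSMI against rhWnt3a and OSMI against vehicle in this order. They were 5, 80 and 28 with no filter on low counts, 0, 31 and 5 by DESeq2, 2, 64 and 10 by unadjusted p, 0, 8 and 1 with a gene length correction, 0, 17 and 4 with a transcript length and GC correction, 0, 1 and 0 with upper-quartile scaling, 2, 0 and 0 with the 6 libraries of each comparison, 0, 3 and 0 when scaled by summed ribosomal protein counts (the 3 higher), and 2, 11 and 6 without rhWnt3a replicate 2 and OSMI replicate 3. Without vehicle replicate 3, rhWnt3a replicate 2 and OSMI replicate 3 they were 8 (7 higher), 26 (25 lower) and 10 (8 lower), or 9.2%, 29.9% and 11.5% of members beside 18.1%, 12.7% and 23.7% of all tested genes. These libraries were left out because they stood apart in these same data, and each group then held 2 libraries. Smaller SE and adjusted p values, and more calls, thus follow in part from that choice. For OSMI against rhWnt3a the shares of all genes called were 5.37% with no filter, 8.7% by DESeq2, 6.91% and 8.4% with the 2 length corrections and 4.86% without the 2 libraries. Upper-quartile scaling called 4.96% of all genes there. For OSMI against vehicle the 2 length corrections called 17% and 17.9%, and for rhWnt3a against vehicle the fit on 6 libraries called 8.94%. Leaving out 1 library at a time gave 0 to 6, 0 to 5 and 0 to 1, with the highest of each without OSMI replicate 3. For OSMI against vehicle the same number was called without rhWnt3a replicate 2. The cause of these differences was not tested.

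Same-numbered libraries did not deviate together (r over all tested genes 0.44, −0.49 and −0.49 for rhWnt3a and vehicle, −0.31, 0.37 and 0.33 for OSMI and rhWnt3a, −0.32, −0.20 and −0.41 for OSMI and vehicle), so the numbers were not taken as pairs. The replicate block called 0, 1 and 0 members, beside 5.78%, 1.66% and 9.26% of all tested genes. With gene length added it called 1, 4 and 1, beside 8.05%, 3.34% and 13.1%. With transcript length and GC it called 1, 11 and 1, beside 9.63%, 5.05% and 14.9%.

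The members' mean share was 7.06%, 9.34% and 4.95% of summed FPKM in the vehicle, rhWnt3a and OSMI groups. In replicates 1, 2 and 3 it was 6.64%, 7.09% and 7.46% with vehicle, 8.15%, 11.5% and 8.34% with rhWnt3a, and 6.31%, 6.42% and 2.11% with OSMI. The members' median SD was 0.117 without the 3 libraries named above (all tested genes 0.112) and 0.160 without the 2 (0.209). A smaller spread again follows in part from the choice of libraries. Signs turned for Rps10 (0.044) and Rpl7a (0.084) in rhWnt3a against vehicle without rhWnt3a replicate 3, for Rpl7a (0.36) without vehicle replicate 2, for Rps27rt (−0.020) without OSMI replicate 2 and Rpl36al (−0.15) without rhWnt3a replicate 3 in OSMI against rhWnt3a, and for Rpl29 in OSMI against vehicle without vehicle replicate 2 (−0.033) or OSMI replicate 1 (−0.18). With 1 library left out, Rpl7a ran from −0.43 to 0.36, Rps27rt from −0.020 to 1.02 and Rpl36al from −0.15 to 0.88 in these comparisons. Low counts limit Rpl29 (8 to 19 counts) and Rpl36al (5 to 25).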
